A study of Mus musculus with 17 samples.

Results

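The genes described here encode the proteins of the cytosolic ribosome. They were chosen by symbol, as genes named Rpl or Rps with a digit, together with Rplp0, Rplp2 and Rpsa, and each was read through the brightest probe set that carries its symbol alone. The rule found 46 genes among the 18193 genes with such a probe set, 24 with an Rpl symbol (large subunit) and 22 with an Rps symbol (small subunit). By its letter the rule also took in Rps19bp1, a nucleolar protein that binds Rps19 and is no ribosome subunit, and the paralogs Rpl22l1 and Rpl7l1. The subunits Rpl5, Rpl10, Rpl24, Rpl36a, Rplp1, Rpl3 and Rps27a have no probe set with a single symbol in the annotation used and are not among the 46.

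RNA was measured in 17 C57Bl/6 mice, one array per mouse. The labels give the material as homogenized thymus, while the methods of the study name thymocytes. Of these, 5 were Tcf1+/- (wt/ΔVII) and served as controls, 4 were Tcf1-/- (ΔVII/ΔVII) without a tumor, and 8 were Tcf1-/- (ΔVII/ΔVII) with a thymic lymphoma. All groups carry at least one ΔVII allele of Tcf1, a transcription factor that acts with β-catenin in Wnt signaling, the mutation is germline, and the ages of the mice are not given in the labels. The targeted gene itself was not analysed here.

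The ribosome reads mRNA with its small subunit and joins amino acids in its large subunit, and each carries a fixed set of proteins. The mRNAs of these proteins begin with a run of pyrimidines, the 5′ terminal oligopyrimidine (TOP) tract, through which mTOR signaling controls their translation. In thymocytes Rpl22 is required for the development of αβ T cells, it is lost in some T-cell lymphomas, and its paralog Rpl22l1 is repressed by Rpl22.

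Runs of pyrimidines are visible near the annotated transcription starts of several members that the results below turn on. Each window holds the 15 bases before and the 15 bases after the start annotated by RefSeq (GRCm38.p6), in the direction of the gene, and capitals mark the longest run of C and T that begins with C and has at least 5 bases. A run at any annotated start of a gene was counted, and the share of all genes with one was not determined. Rps19, not shown, holds one only at chr7:24884898-24884927. Such a run was present for 26 of the 41 members with a window, among them 25 of 38 core subunits, and for 5 of the 8 members called in a comparison. The other 3 called members, the core subunit Rpl37 with Rps19bp1 and Rpl7l1, hold none and are shown last.
Rps6 (chr4:86857353-86857382, minus strand): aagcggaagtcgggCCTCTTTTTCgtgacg
Rpl14 (chr9:120571502-120571531, plus strand): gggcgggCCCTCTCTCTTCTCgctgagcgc
Rpl35 (chr2:39005117-39005146, minus strand): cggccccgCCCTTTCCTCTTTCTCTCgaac
Rpl22l1 (chr3:28805493-28805522, plus strand): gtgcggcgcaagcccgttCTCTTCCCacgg
Rpl38 (chr11:114668565-114668594, plus strand): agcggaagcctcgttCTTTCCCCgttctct
Rps18 (chr17:33955651-33955680, minus strand): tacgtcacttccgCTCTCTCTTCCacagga
Rpl37 (chr15:5116598-5116627, plus strand): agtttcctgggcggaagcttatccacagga
Rps19bp1 (chr15:80264292-80264321, minus strand): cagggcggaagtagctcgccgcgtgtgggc
Rpl7l1 (chr17:46782642-46782671, minus strand): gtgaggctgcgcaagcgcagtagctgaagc

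As a simple count, the letters CTTTC were searched on the gene strand from 10 bases before to 50 bases after the annotated starts. They were present for 17 of the 41 members with an entry in the promoter table (41.5%) and for 8.48% of all 27025 genes in it. On the other strand the same letters were present for 7.32% of the members and 8.97% of all genes. The median log2 difference between lymphomas and Tcf1+/- thymi was 0.14 for the 17 members with the letters and 0.15 for the 23 tested members without them.

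The ribosomal protein genes were among the brightest on the arrays in all 3 groups. Of the 46 members, 35 had a mean log2 signal above 13 over the 17 arrays, where the brightest probe set of an array reached 15.18 to 15.45. The other 11 (Rpl12, Rpl14, Rpl27a, Rpl37, Rpl39, Rpl7l1, Rps16, Rps19bp1, Rps25, Rps27 and Rps6) lay at 11.28 or below, and the next member up, Rpl22l1, at 13.16. The division at 13 was made after these values had been seen. Rps16, a small subunit protein, had the dimmest probe set (mean log2 signal 3.69) and was the only member that did not pass the filter on low values, which leaves 45 members tested. A dim signal here is that of one probe set, and the levels of different genes cannot be ranked from it.

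The mean log2 signal of the 46 members was 12.88 to 12.97 in the 5 Tcf1+/- thymi, 13.005 to 13.13 in the 4 Tcf1-/- thymi without a tumor and 13.08 to 13.20 in the 8 lymphomas. The Tcf1+/- range did not overlap with either of the others, while the Tcf1-/- and lymphoma ranges overlapped. The steps are small, and they differ between bright and dim members. The mean of the 35 bright members was 14.38 ± 0.06 (SD, n = 5) in Tcf1+/- thymi, 14.49 ± 0.04 (n = 4) in Tcf1-/- thymi and 14.52 ± 0.07 (n = 8) in lymphomas. That of the 11 dim members was 8.28 ± 0.11, 8.50 ± 0.17 and 8.75 ± 0.16 in the same order. Because bulk RNA was measured, fewer cells of a type and less RNA per cell cannot be told apart in any of these values.

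Features of the whole series bear on these values. On 4 arrays, Tcf1+/- mice 1 and 2 and lymphomas 1 and 2, the interquartile range of log2 signal was 2.93 to 3.06, against 3.49 to 3.75 on the other 13 arrays. Their bright members were lower (14.30 to 14.32 in the Tcf1+/- pair, 14.42 to 14.43 in the lymphoma pair) than those of the other mice of their group (at least 14.41 and 14.50). Signal of Y-linked genes was high in all 4 Tcf1-/- mice, in 4 of 5 Tcf1+/- mice and in 2 of 8 lymphomas. Thymocyte markers were lower in Tcf1-/- thymi (8 of 11 called) and macrophage and B-cell markers higher (9 of 9 and 5 of 6 called), with mean log2 signals of the B-cell markers of 9.52 to 11.28 against 6.89 to 7.39 in Tcf1+/- thymi and 6.47 to 7.88 in lymphomas. The macrophage markers averaged 7.16 to 8.32 in Tcf1+/- thymi, 9.39 to 11.36 in Tcf1-/- thymi and 6.14 to 8.92 in lymphomas, and the thymocyte markers 11.93 to 12.51, 10.85 to 11.41 and 10.33 to 11.85. All 3 tested NK-cell markers were called higher in Tcf1-/- and lower in lymphomas, each against Tcf1+/- thymi. In lymphomas the thymocyte markers were lower than in Tcf1+/- thymi (6 of 11 called), and 1 of 6 B-cell and none of 9 macrophage markers were called. Of 5 tested fibroblast markers, 3 were called higher in Tcf1-/- than in Tcf1+/- thymi (Col1a2, Col3a1 and Dcn). Their list averaged 5.06 to 5.27 in Tcf1+/- thymi, 6.08 to 6.69 in Tcf1-/- thymi and 4.87 to 7.33 in lymphomas, where none was called. Of 6 thymic epithelium markers, Psmb11 was called lower in lymphomas against both other groups and Ccl25 against Tcf1-/- thymi, with list means of 5.75 to 6.30, 6.29 to 7.16 and 5.04 to 6.00 in the same order. No marker of cycling cells or of erythroid cells was called in any comparison, but single Tcf1-/- mice stood out. The mean of the cycling markers was 8.77 in Tcf1-/- mouse 1 and 10.74 to 10.86 in the other Tcf1-/- mice. That of the erythroid markers was 8.59 in Tcf1-/- mouse 4 and 5.26 to 6.86 in the other Tcf1-/- mice. It was 5.41 to 6.13 in Tcf1+/- thymi and 4.68 to 6.47 in lymphomas. The part of these differences in cell composition in the results below was not tested.

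**Figure D1:**
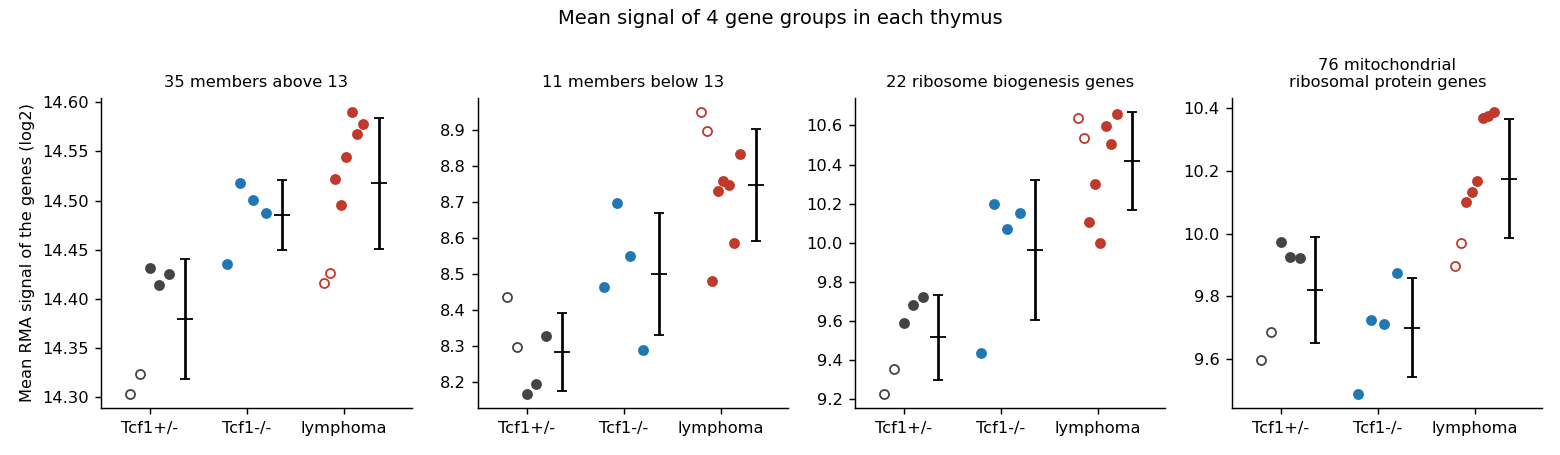
Mean RMA signal (log2) of the 35 members above 13, the 11 members below 13, 22 ribosome biogenesis genes and 76 mitochondrial ribosomal protein genes in each thymus. Points are mice, open where the array is one of the 4 with a narrow signal range, and bars give the mean ± SD of the group. The dim members run from 8.17 to 8.44 in Tcf1+/- thymi and from 8.48 to 8.95 in lymphomas, so these groups do not overlap, and the same holds for the biogenesis genes.

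The comparison of lymphomas with Tcf1+/- thymi asks how the tumors differ from thymus that still has one intact Tcf1 allele. Of the 45 members tested, 8 were called higher (17.8%) and none lower, with limma and a Benjamini-Hochberg adjusted p under 0.05 over 13755 genes. Without Rps19bp1, Rpl7l1 and Rpl22l1, which are no core subunits, 5 of 42 were called higher (11.9%). Of all genes tested, 8.51% were called higher and 4.21% lower. At an unadjusted p under 0.05, 12 members were higher and none lower, and by the Mann-Whitney U test 12 were called higher and none lower. Of all 13755 genes, 2319 were higher and 1199 lower at that unadjusted p. The Mann-Whitney U test called 852 of them higher and 365 lower. The members' median log2 difference was 0.13, with 38 of 45 above 0, against 0.06 over all genes. The calls comprised 5 of 10 dim members, with a median difference of 0.49. They also held 3 of 35 bright ones (8.57%), with a median of 0.10, close to the share among all genes. Rps19bp1 and Rpl7l1 are among the 5 dim calls and Rpl22l1 among the 3 bright ones. Among the 88 other genes tested with a mean log2 signal above 13, 16 were called higher and 6 lower.

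Rps6, the small subunit protein that S6 kinases phosphorylate, had log2 signals of 10.21, 10.07, 10.50, 10.28 and 10.35 in the Tcf1+/- thymi. In the lymphomas the lowest, median and highest were 10.88, 11.26 and 11.82. Every lymphoma was above every Tcf1+/- thymus, and the difference was 1.04 (2.05-fold, SE 0.19, adjusted p = 0.00308). The Tcf1-/- thymi lay between, at 10.40, 10.95, 10.82 and 11.04, and overlapped with both groups. They differed from the Tcf1+/- thymi by 0.52 (adjusted p = 0.0678) and from the lymphomas by the same size (adjusted p = 0.128). Without Tcf1-/- mouse 1, the lowest of the group, the first of these differences was 0.65 (adjusted p = 0.018).

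Rpl14, a large subunit protein, was measured at 8.47, 8.43, 8.69, 8.97 and 8.65 in Tcf1+/- thymi and at 9.26, 9.62 and 10.21 (lowest, median and highest) in lymphomas. These groups did not overlap, and the difference was 1.02 (2.02-fold, SE 0.18, adjusted p = 0.00308). The Tcf1-/- thymi, at 8.26, 9.24, 9.22 and 8.96, also lay below every lymphoma, by 0.74 on average (adjusted p = 0.0497).

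Rps19bp1 had log2 signals of 8.34, 8.55, 8.69, 8.81 and 8.75 in Tcf1+/- thymi and of 8.42, 8.92, 8.90 and 8.76 in Tcf1-/- thymi. The lymphomas ran from 9.12 over a median of 9.61 to 9.86, above every thymus of both other groups. The difference was 0.95 from Tcf1+/- thymi (1.93-fold, SE 0.14, adjusted p = 0.00101) and 0.83 from Tcf1-/- thymi (1.78-fold, adjusted p = 0.00403).

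Rpl37, a small zinc-binding protein of the large subunit, was at 11.21, 11.17, 10.48, 11.06 and 10.92 in Tcf1+/- thymi and at 11.28, 11.55 and 11.84 (lowest, median and highest) in lymphomas, a difference of 0.62 (adjusted p = 0.0166). The ranges did not overlap, but lymphoma 7, at 11.28, was close to Tcf1+/- mouse 1, at 11.21. The Tcf1-/- thymi split, with 11.40, 11.48 and 11.59 in mice 1 to 3 and 9.84 in mouse 4.

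Among the bright members, Rps19 and Rpl35 rose by smaller amounts. Rps19, mutated in Diamond-Blackfan anemia, was at 13.88, 13.85, 13.95, 13.88 and 13.89 in Tcf1+/- thymi, and the lymphomas lay at 14.05, 14.30 and 14.48 (lowest, median and highest). The difference was 0.38 (adjusted p = 0.0462), all lymphomas were higher, and the lowest of them were lymphomas 1 and 2, of the 4 arrays with a narrow signal range. Rpl35, which sits at the exit of the peptide tunnel, was at 14.28, 14.34, 14.25, 14.36 and 14.37 in Tcf1+/- thymi and at 14.47, 14.73 and 14.83 in lymphomas, a difference of 0.37 (adjusted p = 0.0406). Rpl7l1, a paralog of Rpl7, differed by 0.37 (adjusted p = 0.0344), with 9.99 to 10.13 in Tcf1+/- thymi and 10.30 to 10.57 in lymphomas. Against the Tcf1-/- thymi, at 10.09, 9.91, 9.92 and 10.21, it was 0.40 higher in lymphomas (adjusted p = 0.0402), again with no overlap.

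**Figure D2:**
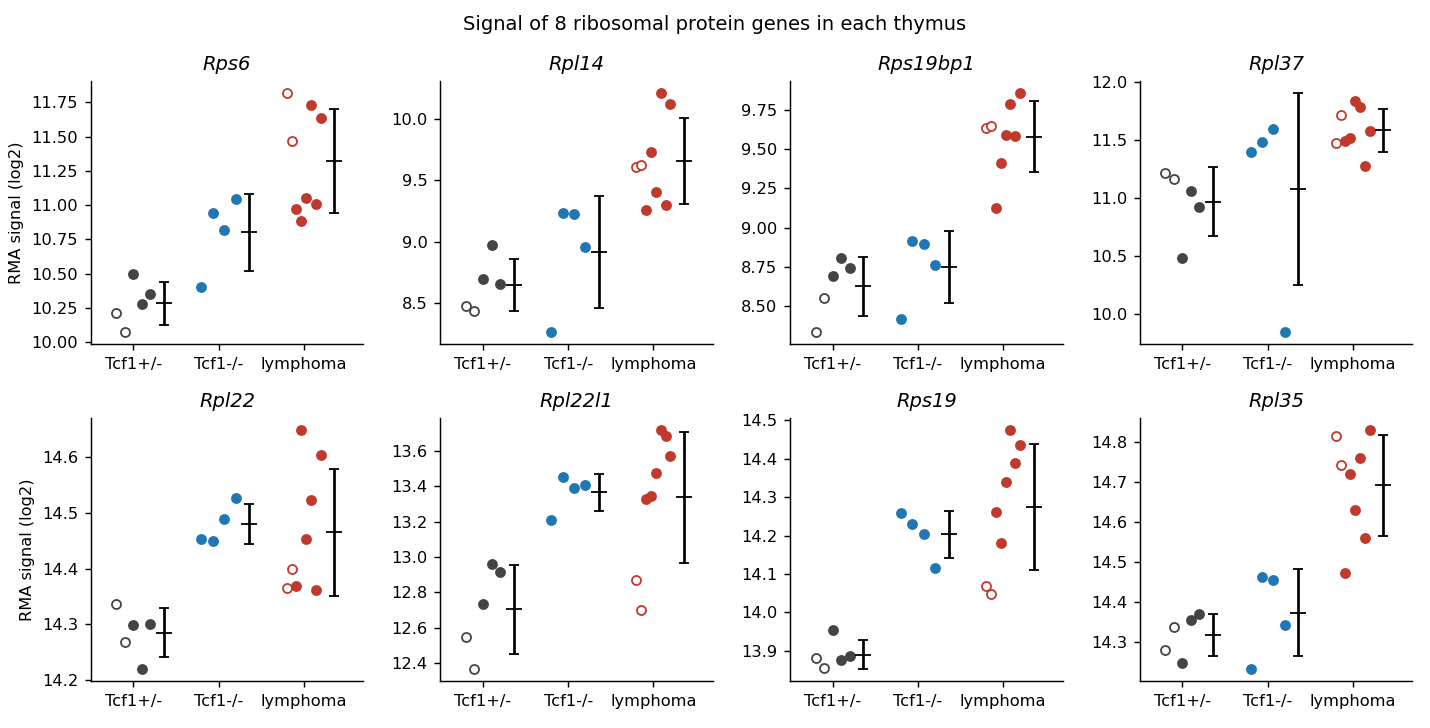
RMA signal (log2) of 8 members in each thymus, one point per mouse, open for the 4 arrays with a narrow signal range; bars give the mean ± SD of the group, and each panel has its own axis. All 8 lymphomas lie above all 5 Tcf1+/- thymi for 7 of the members, the exception being Rpl22l1, and all 4 Tcf1-/- thymi lie above all Tcf1+/- thymi for Rpl22, Rpl22l1 and Rps19.

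Rpl22 and its paralog Rpl22l1 had the same order of groups. Rpl22l1 was at 12.55, 12.37, 12.73, 12.96 and 12.92 in Tcf1+/- thymi and at 13.21, 13.45, 13.39 and 13.40 in Tcf1-/- thymi. The groups did not overlap and differed by 0.66 (1.58-fold, SE 0.16, adjusted p = 0.0192). The lymphomas, with 12.70, 13.41 and 13.72 (lowest, median and highest), were 0.63 above the Tcf1+/- thymi (adjusted p = 0.0452), but lymphomas 1 and 2, at 12.87 and 12.70, fell within the Tcf1+/- range. These were both on arrays with a narrow signal range. Against the pair of Tcf1+/- mice on such arrays, the lymphoma pair was higher by 0.33 (adjusted p = 0.31), and without the 4 arrays the difference was 0.65.

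Rpl22 was at 14.34, 14.27, 14.30, 14.22 and 14.30 in Tcf1+/- thymi, at 14.45, 14.45, 14.49 and 14.53 in Tcf1-/- thymi, and at 14.36, 14.43 and 14.65 (lowest, median and highest) in lymphomas. Both Tcf1-/- groups lay wholly above the Tcf1+/- thymi, yet neither difference passed the test (0.19, adjusted p = 0.364, and 0.18, adjusted p = 0.341). A dimmer Rpl22 probe set (mean log2 signal 9.08) differed by 1.31 between lymphomas and Tcf1+/- thymi (adjusted p = 0.0151 over 29409 probe sets). The third, at 13.13, differed by 0.14 (adjusted p = 0.64). When the probe sets of each gene were averaged, Rpl22 was called higher in lymphomas (0.54, adjusted p = 0.0235) and in Tcf1-/- thymi (0.40, adjusted p = 0.0488). Within each array the log2 signal of Rpl22l1 was 1.26 to 1.90 below that of Rpl22 in Tcf1+/- thymi, 0.996 to 1.24 below in Tcf1-/- thymi and 0.68 to 1.70 below in lymphomas. Since each probe set has its own response, only the changes in this gap between arrays can be read.

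The other members were not called in any of the 3 comparisons as fitted here. Rps25, a small subunit protein, had the largest difference of all members between lymphomas and Tcf1+/- thymi, 1.11, and missed the threshold (adjusted p = 0.0625). It was called higher with the mouse number as a block (1.18, adjusted p = 0.0404), with the array set as a block (1.24, adjusted p = 0.0071), within the 4 arrays (1.57, adjusted p = 0.018), when all 17 arrays entered one model (adjusted p = 0.034) and when lymphoma 3 or 5 was left out. In the remaining alternatives its adjusted p was 0.0507 to 0.224. In Tcf1-/- against Tcf1+/- thymi it differed by 0.47 (adjusted p = 0.227), and it was called higher without the 4 arrays (0.73, adjusted p = 0.00739) and with the array set as a block (adjusted p = 0.0166). Rps18 (0.34, adjusted p = 0.0507) and Rpsa, the laminin receptor precursor of the small subunit (0.33, adjusted p = 0.123), were higher in all 8 lymphomas than in every Tcf1+/- thymus. For Rpsa the highest values, 15.28 and 15.22, were those of lymphomas 1 and 2. The stalk proteins Rplp0 and Rplp2 differed by 0.03 and 0.14, the X-linked Rps4x by 0.06, the Mdm2-binding Rpl11 by 0.09, and the short basic peptides Rpl39 and Rpl41 by 0.02 and 0.16 (adjusted p of 0.458 to 0.939). Rpl38, for which all 4 Tcf1-/- thymi and 7 of 8 lymphomas exceeded every Tcf1+/- thymus, differed by 0.22 in lymphomas (adjusted p = 0.212) and 0.18 in Tcf1-/- thymi (adjusted p = 0.403). Only 1 member was more than 0.1 lower, Rpl27a, at -0.66 (adjusted p = 0.198), with 7.79 to 9.96 in Tcf1+/- thymi and 7.80 to 8.80 in lymphomas. Without Tcf1+/- mouse 4, the lowest control, Rpl27a was called lower.

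Counted by separation of the groups, 12 members (Rpl10a, Rpl14, Rpl22, Rpl35, Rpl37, Rpl7l1, Rps18, Rps19, Rps19bp1, Rps2, Rps6 and Rpsa) had all lymphomas above all Tcf1+/- thymi, and none the reverse. Over all genes tested these shares were 4.78% and 1.9%. These 12 members are those called by the Mann-Whitney U test, so the counts are not separate results. The 8 calls were not equally stable. Rps6, Rpl14, Rps19bp1 and Rpl37 kept theirs when any single mouse was left out. Rpl22l1 kept its call only without lymphoma 1 or 2, Rpl35 only without lymphoma 3, 5 or 7, Rpl7l1 only without lymphoma 2, 4 or 5, and Rps19 only without lymphoma 1, 2 or 4. The count fell to 4 without any one of the 5 Tcf1+/- mice or without lymphoma 6 or 8, and to 5 without lymphoma 7.

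Without the 4 arrays with a narrow signal range 7 members were called higher, 6 of them among the 8, and within those arrays 4 were, of which Rps6, Rpl14 and Rps19bp1 are among the 8. With the array set as a block 12 were called, all 8 and Rps15, Rps18, Rps25 and Rpsa. When the signal of Y-linked genes was added to the model, 4 of the 8 stayed (Rps6, Rpl14, Rps19bp1 and Rpl22l1). With the mouse number as a block, over mice 1 to 5, the count was 5, with 4 of the 8 kept (Rps6, Rpl14, Rps19bp1 and Rpl37) and Rps25 added, against 3 for the same mice without the block. When arrays were scaled to a common median and interquartile range, only Rpl14 and Rps19bp1 stayed and the members' median difference was 0.005. The number of all 13755 genes called higher moved as well, from 1170 as first fitted. It was 748 without the 4 arrays, 1611 within them and 2052 with the array set as a block. With the Y-linked term it was 852, and under the interquartile range scaling 824. With the mouse number as a block it was 885, against 412 for the same mice without it.

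**Figure D3:**
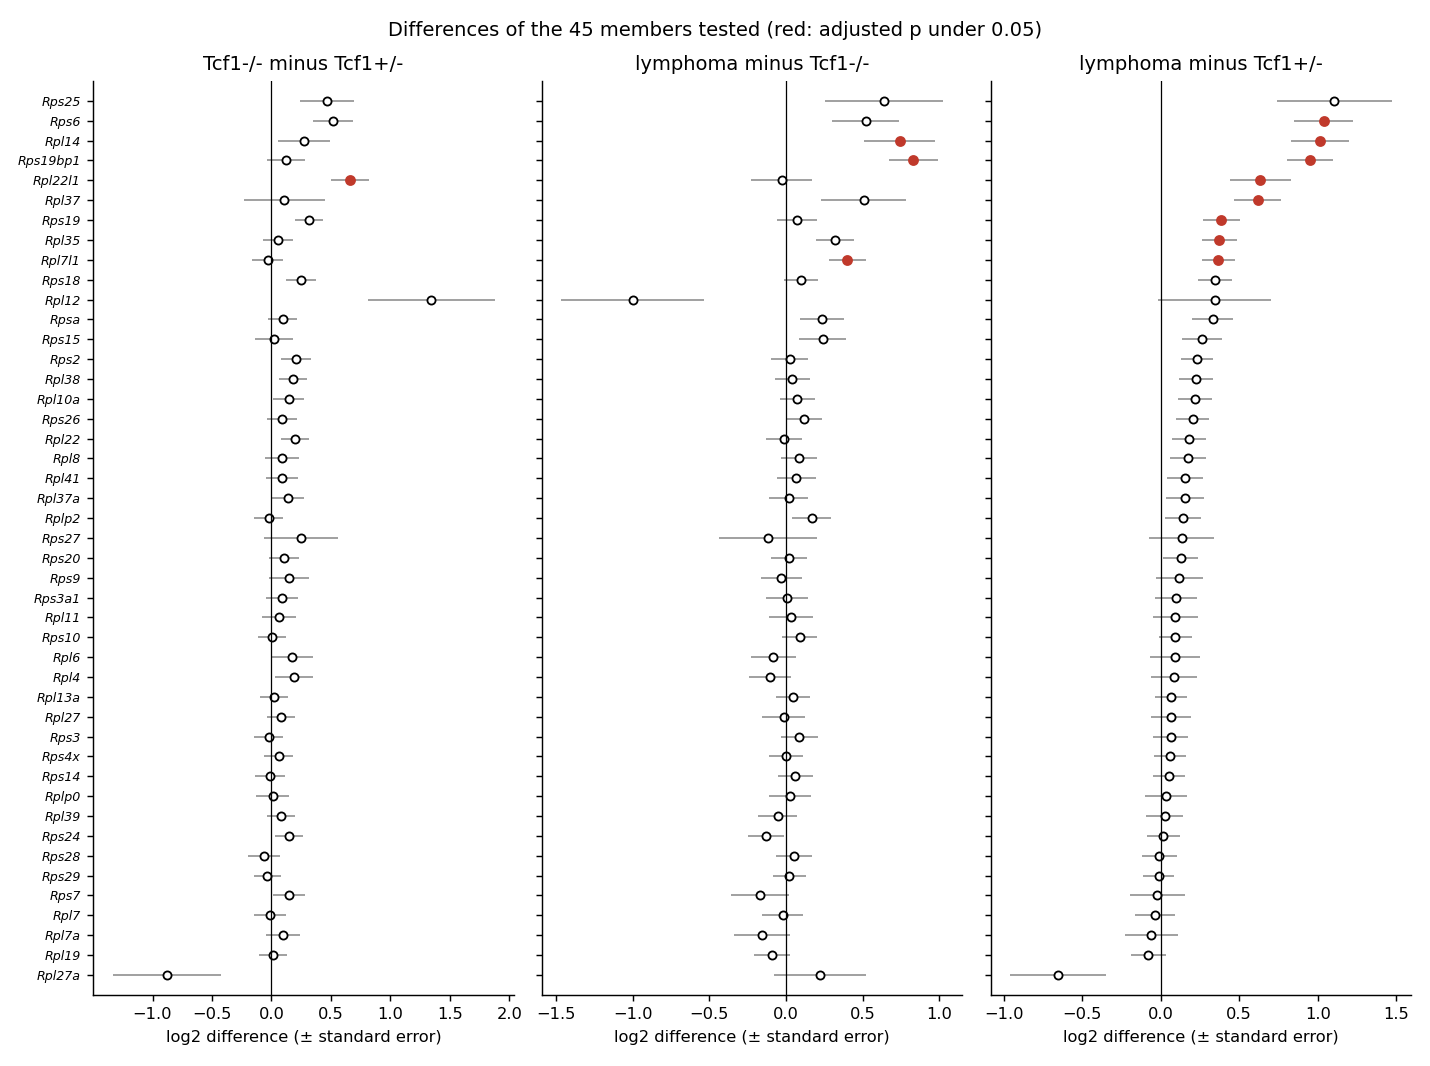
Log2 differences (± standard error of limma) of the 45 members tested in the 3 comparisons, ordered by the difference between lymphomas and Tcf1+/- thymi; red points have an adjusted p under 0.05 and each panel has its own axis. Most members lie close to 0, and the calls are 1, 3 and 8 from left to right, all above 0.

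The comparison of Tcf1-/- thymi without a tumor with Tcf1+/- thymi asks what loss of both Tcf1 alleles changes before a tumor is found. Of 45 members 1, Rpl22l1, was called higher (2.22%) and none lower, against 10.1% and 4.7% of all genes. At an unadjusted p under 0.05, 4 members were higher and none lower, against 2205 and 1355 of all 13755 genes. The Mann-Whitney U test, with 4 and 5 mice, called no member and none of all genes, so it cannot decide here. The median difference was 0.09, with 37 of 45 above 0, and that of all genes was -0.01. The Rpl22l1 call was lost without Tcf1-/- mouse 2 or 3 (adjusted p = 0.0658 and 0.0553). All 4 Tcf1-/- thymi exceeded all Tcf1+/- thymi for 6 members (Rpl22, Rpl22l1, Rpl38, Rps18, Rps19 and Rps24) and lay below them for Rps29. Among all genes the shares were 11.2% and 6.11%, close to 6 of 45. The Rps29 difference, -0.03, is that of a very even probe set, with 14.90 to 14.94 in Tcf1+/- thymi and 14.88 to 14.90 in Tcf1-/- thymi. Rps19 was 0.31 higher in Tcf1-/- thymi (adjusted p = 0.119). The largest difference was that of Rpl12, 1.34 (adjusted p = 0.133), with 8.69, 9.01, 8.69 and 6.50 in the Tcf1-/- thymi and 5.70 to 7.60 in the Tcf1+/- thymi, and it was called higher without Tcf1-/- mouse 4. Scaled to a common interquartile range, the median difference turned to -0.46 and no member was called.

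The comparison of lymphomas with Tcf1-/- thymi without a tumor sets tumor and thymus of the same genotype side by side. It shares its samples with the other comparisons. Of 45 members 3 were called higher (Rps19bp1, Rpl14 and Rpl7l1, 6.67%) and none lower, and of all genes 6.34% higher and 8.35% lower. At an unadjusted p under 0.05 there were 5 higher and none lower, and by the Mann-Whitney U test 4 and none. Of all 13755 genes, 2216 were higher and 1846 lower at that unadjusted p. The Mann-Whitney U test called 614 of them higher and 865 lower. The median difference was 0.04, with 30 of 45 above 0, below the median of all genes, 0.10. All 3 calls fell among the 10 dim members, and none of the 35 bright members was called. For 4 members (Rpl14, Rpl35, Rpl7l1 and Rps19bp1) all lymphomas were above all Tcf1-/- thymi, and for none below, against 4.41% and 6.27% of all genes. The Rpl14 call was kept only without lymphoma 3, 5 or 7 and the Rpl7l1 call only without Tcf1-/- mouse 4 or lymphoma 2, 4 or 5, while that of Rps19bp1 was kept without any single mouse. The count was 1 without Tcf1-/- mouse 1, 2 or 3 or lymphoma 1, 6 or 8, and 2 without Tcf1-/- mouse 4 or lymphoma 2, 3, 4 or 7. Without Tcf1-/- mouse 4 Rpl12 was called lower. When the signal of Y-linked genes was added to the model, no member was called.

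A gene is often covered by several probe sets, and these did not give one answer. The 46 members have 100 probe sets with a single symbol, of which 94 passed the filter. In lymphomas against Tcf1+/- thymi 9 were called higher (9.57%) and none lower, in a fit of all probe sets in which 5.66% were called higher. The calls included 7 of 13 probe sets with a mean log2 signal of 8 to 13, with a median difference of 0.62, and 2 of 65 above 13, with a median of 0.14. None of 16 below 8 was called, at a median of 0.24. Rps3, a small subunit protein with endonuclease activity, differed by 0.06 on its bright chosen probe set and by 1.35 on one at 9.34 (adjusted p = 0.00969). All 4 tested probe sets of Rpl35 other than the chosen one, all above 14, were higher in lymphomas by 0.37 to 0.44, and 2 of them were called. In this fit the chosen probe sets of Rpl35, Rpl22l1 and Rps19 missed the threshold (adjusted p = 0.052, 0.0567 and 0.0587). In lymphomas against Tcf1-/- thymi those of Rpl14 and Rpl7l1 missed it (adjusted p = 0.0625 and 0.0527). How far a limited response near the top of the scale enters the differences of the bright probe sets was not tested.

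**Figure D4:**
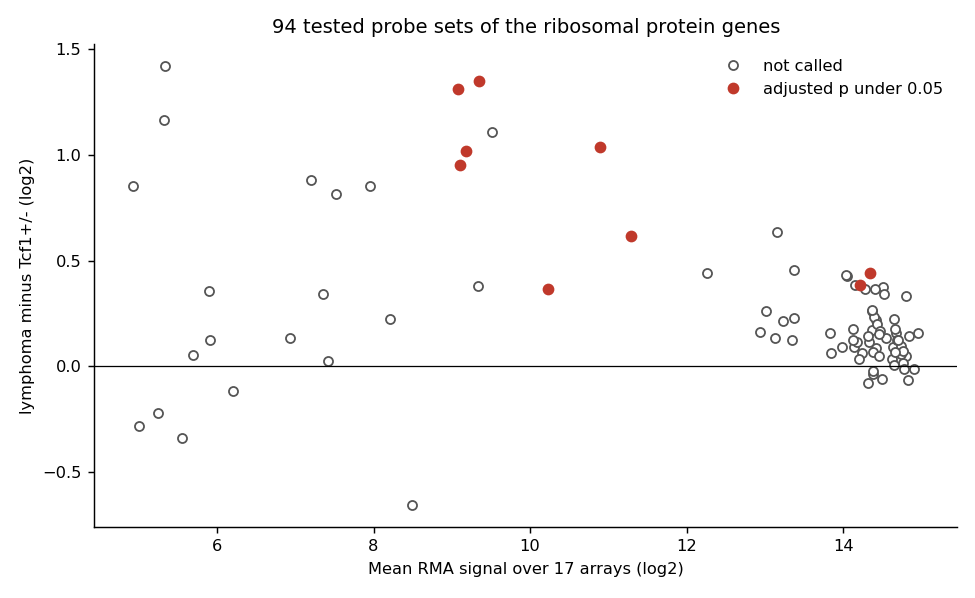
Log2 difference between lymphomas and Tcf1+/- thymi against the mean RMA signal (log2) over the 17 arrays for the 94 tested probe sets with a single symbol; red points have an adjusted p under 0.05. Differences reach from -0.66 to 1.42 below a signal of 13 and from -0.08 to 0.63 above it.

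Probe sets shared between a member and other symbols, mostly its pseudogenes, were kept apart, since they cannot be assigned to one gene. For Rpl14, 4 of 5 such probe sets, all above 13, were called higher in lymphomas, by 0.55 to 0.62. For Rps6 none of 9 was called, and they ran from 0.02 to 0.37 against 1.04 for the chosen probe set. The other probe set of Rps6 alone, with a mean log2 signal of 4.93, differed by 0.85 and was not called (adjusted p = 0.37). The Rps6 call therefore rests on the chosen probe set. Of 3 shared probe sets of Rpl37 none was called (0.12 to 0.32). For the 8 subunits that have shared probe sets and none of their own, 6 of 18 were called higher, against 5.66% of all probe sets tested. Several of the 18 belong to the same gene. All 3 shared probe sets of Rpl36 (0.43 to 0.80) and that of Rpl36a (0.56) were called. One of 3 for Rpl5, which with Rpl11 and 5S rRNA binds Mdm2, was called (1.46), while its brightest differed by 0.09. For Rpl31, 1 of 4 was called (1.002), while its brightest differed by 0.04. None was called among those of Rpl13, Rpl32, Rps13 and Rps15a.

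Members did not follow one common course over the 17 arrays, which are not independent of the groups. Their correlation with the mean of the other members was highest for Rps19 (Pearson r = 0.87), Rps19bp1 (0.85), Rpl14 (0.84) and Rpl10a (0.83), and lowest for Rpl27a (-0.55), Rps28 (-0.30) and Rpl19 (-0.24). Of all genes tested outside the list, those most alike to the mean of the members over the 17 arrays were 1110038B12Rik (r = 0.95), Abcb6 (0.94), the snoRNA host gene Gas5 (0.93), the pseudouridine synthase Pus1 (0.93) and the elongation factor subunit Eef1b2 (0.93).

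Other genes of ribosome function moved to different degrees. Of 16 elongation factors and other genes with TOP mRNAs, 3 were called higher in lymphomas against Tcf1+/- thymi and none lower, at a median difference of 0.23. They were Eef1b2 (0.42, adjusted p = 0.0183), the initiation factor subunit Eif3e (0.50, adjusted p = 0.0327) and the histone chaperone Nap1l1 (0.74, adjusted p = 0.00383). Eef1a1, the main elongation factor, differed by -0.06 (adjusted p = 0.855). The count was 1 with the mouse number as a block and 0 under the interquartile range scaling. Leaving out single mice gave 1 to 4, the 1 without Tcf1+/- mouse 3. The call counts were 2 without Tcf1+/- mouse 1, 2 or 5 or lymphoma 1, 6 or 7. Fau, the small subunit protein made as a fusion with a ubiquitin-like peptide, differed by -0.03 (adjusted p = 0.958), with 12.86 in lymphoma 4 and at least 13.93 in every other mouse.

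Ribosome biogenesis genes, which make and process rRNA in the nucleolus, were called higher in lymphomas against Tcf1+/- thymi for 17 of 22 and lower for none, with a median log2 difference of 1.02. Examples are the rRNA methyltransferase Fbl (1.11, adjusted p = 0.00113), the RNA polymerase I subunit Polr1a (1.08, adjusted p = 0.00174), nucleostemin Gnl3 (1.18, adjusted p = 0.000255) and nucleolin Ncl (0.64, adjusted p = 0.0133). The count was 10 with the mouse number as a block, 11 without the 4 arrays, 19 within them and 9 under the interquartile range scaling, and 13 to 18 when single mice were left out. In Tcf1-/- thymi 4 of 22 were called higher than in Tcf1+/- thymi (Fbl, Heatr1, Polr1a and Tsr1), at a median of 0.48, and in lymphomas against Tcf1-/- thymi 2 (Gar1 and Rrs1), at 0.47. The 4 became 1 under the interquartile range scaling, at a median of 0.16, 10 without Tcf1-/- mouse 1 and 2 without mouse 2, and the 2 became 0 with a term for Y-linked signal and 1 without the 4 arrays.

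Of 7 regulators of TOP mRNA translation and S6 kinases, 2 were called higher in Tcf1-/- than in Tcf1+/- thymi, 1 in lymphomas against Tcf1+/- thymi and none in lymphomas against Tcf1-/- thymi, and none was lower. Larp1, which binds TOP mRNAs, was higher than in Tcf1+/- thymi by 0.87 in Tcf1-/- thymi (adjusted p = 0.0177) and by 1.02 in lymphomas (adjusted p = 0.00168). Eif4ebp1, an mTOR target that restrains initiation, was 1.27 higher in Tcf1-/- thymi (adjusted p = 0.00548) and differed by 0.79 in lymphomas (adjusted p = 0.302). Under the interquartile range scaling the counts were 1 in Tcf1-/- thymi and 0 in lymphomas.

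Of 76 mitochondrial ribosomal protein genes, encoded in the nucleus for the separate ribosome of mitochondria, 17 were called higher in lymphomas against Tcf1+/- thymi and none lower, with a median difference of 0.32. Against Tcf1-/- thymi 23 were called higher, with a median of 0.47. In Tcf1-/- against Tcf1+/- thymi none was higher and 2 were lower, with a median of -0.13. Those 2 became 9 without the 4 arrays, at a median of -0.28, and 3 under the interquartile range scaling, at -0.41. The count of 23 was 9, 14 and 12 without Tcf1-/- mouse 1, 2 and 3, 40 without the 4 arrays and 2 when the signal of Y-linked genes was added to the model. Under the interquartile range scaling the counts of 17 and 23 became 5 and 35.

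Of 10 tested targets of p53, which unbound ribosomal proteins can activate through Mdm2, 4 were called higher in Tcf1-/- than in Tcf1+/- thymi (Aen, Cdkn1a, Phlda3 and Pmaip1) and 1 lower (Trp53inp1), at a median of 0.45. The counts were 4 and 3 without the 4 arrays and 3 and 2 under the interquartile range scaling, at medians of 0.24 and 0.22. In lymphomas against Tcf1+/- thymi 3 were higher (Aen, Phlda3 and Zmat3) and 1 lower (Trp53inp1), and against Tcf1-/- thymi none was called, with 2 higher at an unadjusted p under 0.05. Phlda3 was 1.02 higher in Tcf1-/- thymi (adjusted p = 0.0219) and 1.52 higher in lymphomas (adjusted p = 0.00296) than in Tcf1+/- thymi. Mdm2 itself differed by -0.34 and -0.26 (adjusted p = 0.406 and 0.637).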

How the data were processed

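Total RNA of the 17 thymi was labelled and hybridized to Affymetrix mouse genome GeneChip arrays, one mouse per array. The values deposited by the authors are log2 RMA signals, and whether all arrays were normalized together is not given in the sources used here. RMA corrects background, quantile normalizes and summarizes probes, so a difference in total RNA is not retained. Of the 45101 probe sets, 64 are controls, 34945 carry 1 gene symbol and were used, 932 carry several and 9160 none. Each gene was read through its brightest probe set, by mean over all 17 arrays, and genes above the 40th percentile on at least 4 arrays (13755) were tested. Each pair of groups was compared in its own limma fit (limma 3.58.1, R 4.3.3) with empirical Bayes moderation and Benjamini-Hochberg adjustment over all genes tested, and genes with an adjusted p under 0.05 were called. Differences are on the log2 scale.

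The members, the gene lists and the alternatives were chosen with earlier results of these data known. Members named in the text are those called in a comparison, 19 symbols chosen for their known roles, of which 12 are members, and the 5 genes most correlated with the members' mean. Others named for a non-overlapping, large or near-threshold difference, and genes named from the other lists, were picked after their values were seen. Each sample is a mouse of its own, and the number of mice limits the precision. Mice of different groups share numbers. For lymphomas and Tcf1+/- thymi the deviations of same-numbered arrays from the group means correlated at 0.25 to 0.62 in all 5 pairs. A pair's own partner was its best match in 2 of 5. The highest correlations, 0.62, were those of pairs 1 and 2, which are the 4 arrays with a narrow signal range. The part of the array set in these correlations was not tested. No label says that equal numbers belong together, so the main fit is unpaired and the mouse number serves as an alternative. The fits were tested on simulated data. In Tcf1-/- against Tcf1+/-, lymphoma against Tcf1-/- and lymphoma against Tcf1+/-, a log2 change of 0.5 was called in 0, 2 and 4%. A change of 1 was called in 36, 56 and 54%, and a change of 2 in 94, 86 and 98%. In the simulated data most smaller changes were therefore missed. These rates need not hold for each probe set, since the spread between mice differs. In lymphomas against Tcf1+/- thymi Rpl35, Rps19 and Rpl7l1 were called at 0.37, 0.38 and 0.37, while Rps25, at 1.11, was not. Alternatives were other filters, normalizations and probe set rules, a fit of all arrays, the mouse number or array set as a block, a term for the signal of Y-linked genes, the Mann-Whitney U test named by the study, and leaving out single mice or the 4 arrays. The fit of all probe sets, the division by signal at 13 and the same mice without the block were chosen after seeing the data. Coordinates and sequences are from RefSeq (GRCm38.p6), with 41 of 46 members matched.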

Additional observations from a re-analysis of the deposited data

Results flagged for a closer look

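Among 17 named members, 51 groups were checked for a mouse far from the rest of its group (a gap to the nearest other mouse that takes up most of the range), and 3 were found, about the 1 in 20 that chance gives. Rpl37 in Tcf1-/- mouse 4 had a log2 signal of 9.84, with the next mouse at 11.40. Rpl38 in lymphoma 4 was at 14.51, with the next at 14.68, and is the one lymphoma within the Tcf1+/- range of this gene. Rpl39 in lymphoma 1 was at 7.08, with the next at 7.33.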

How the results depend on the processing

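In lymphomas against Tcf1+/- thymi, 8 members were called higher. The count was 4 after quantile normalization, 2 after scaling to a common median and interquartile range, 5 with probe sets without s or x in their suffix, 5 with the replicate number as a block, 3 for the same mice unblocked, 4 within the 4 arrays, 4 with a term for Y-linked signal, 12 with the array set as a block and by the Mann-Whitney U test, 9 with all 17 arrays and with no filter, and 5 without the 3 symbols that are no core subunits, and 4 to 7 without single mice. In Tcf1-/- against Tcf1+/- thymi the 1 call became 0 under the interquartile range scaling, under the replicate block and without the non-core symbols. The count was 2 with probe sets averaged, without the 4 arrays and with the array set as a block, and 0 to 2 without single mice. It was also 0 by the Mann-Whitney U test. With 4 and 5 mice that test called none of the 13755 genes in either direction, so its result says nothing about this call. In lymphomas against Tcf1-/- thymi the 3 calls became 1 after quantile normalization and without the non-core symbols, and 0 under the replicate block, for the same mice unblocked and with a term for Y-linked signal, and 1 to 3 without single mice. Numbers shared by Tcf1-/- mice with the other groups did not pair the arrays (correlations of -0.29 to 0.12). In Tcf1-/- against Tcf1+/- thymi the block gave 1 call of a biogenesis gene, 0 of mitochondrial ribosomal protein genes, 1 of the regulators of TOP translation, and 2 higher and 1 lower p53 targets, and in lymphomas against Tcf1-/- thymi 0 biogenesis and 0 mitochondrial ribosomal protein genes. Calls of lower members were 0 in each setting except 1 without Tcf1+/- mouse 4 and 1 without Tcf1-/- mouse 4. The number of all genes called higher moved with the setting too. In lymphomas against Tcf1+/- thymi, 1170 as fitted, it was 1007 after quantile normalization and 852 by the Mann-Whitney U test. In Tcf1-/- against Tcf1+/- thymi, 1390 as fitted, it was 960 with the replicate block and 0 by the Mann-Whitney U test. In lymphomas against Tcf1-/- thymi, 872 as fitted, it was 46 with the replicate block and 62 with the Y-linked term.

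The members' median difference moved by more than the spread between mice (SD 0.09) under the interquartile range scaling alone, to -0.46, 0.48 and 0.005 in Tcf1-/- against Tcf1+/-, lymphoma against Tcf1-/- and lymphoma against Tcf1+/-. Without single mice it was 0.07 to 0.12, 0.03 to 0.05 and 0.12 to 0.16. The same scaling moved the median of all genes from -0.01 to -0.14 and from 0.10 to 0.21 in the first 2 of these, and their split of genes called higher and lower from 1390 and 647 to 1190 and 943, and from 872 and 1148 to 1237 and 1028. No called member changed direction in any setting. Rpl14 and Rps19bp1 were called in lymphomas against Tcf1+/- thymi in all 27 alternatives and Rps6 in 26, the exception being the interquartile range scaling (1.01, adjusted p = 0.0831). The causes were not tested. The number of mice limits the precision, and a difference that missed the threshold is not shown to be absent.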
